A study of Mus musculus with 10 samples.

Results

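The 38 genes described here are immediate early and NF-kB response genes, taken by their symbol from the deposited count table across all 10 libraries. They fall into 12 AP-1 and EGR transcription factor genes, 14 other immediate early and feedback genes, and 12 NF-kB genes. The table held 58735 human genes, and all 38 symbols were found in 39 rows, because SOD2 stood under 2 Ensembl identifiers. The row of ENSG00000112096, with 9514 counts, was used, and the row of ENSG00000285441, with 9 counts, was not. The low-count filter kept 31 of the 38 members and 16913 genes in all. The members it left out were FOSL1, EGR1, EGR2, EGR3, IER3, TRAF1 and CXCL8.

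The libraries were made from total RNA of subcutaneous tumours of LNCaP, an androgen-responsive human prostate cancer cell line, grown from 3000000 injected cells in mice of the genotype NOD.Cg-Prkdcscid Il2rgtm1Wjl/SzJ, which lack T, B and NK cells of their own. For the 5 IL-15 tumours the mice were given sipuleucel-T (sip-T, a human blood cell product exposed to a prostatic acid phosphatase and GM-CSF fusion protein) together with 1 µg of rhIL-15, the human form of a growth and survival factor of T and NK lymphocytes. For the 5 control tumours they were given control sip-T and sham doses of PBS. Both groups received 4 weekly intraperitoneal injections of 5000000 cells in 100 µl, begun when tumours averaged 50 to 100 mm2, and the tumours were collected at day 7 following the final dose. The design text speaks both of cells treated with IL-15 and of injected IL-15, which cannot be told apart here. No donor numbers are given in the sources used here, and the labels do not say that each tumour came from its own mouse, so every p-value speaks for the spread of these 10 libraries, which may be partly technical.

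Immediate early genes are switched on within minutes of a stimulus by transcription factors that are already present, such as SRF with its ELK partners and CREB, which MAP kinases activate. Their products include the FOS and JUN proteins that pair as AP-1, the EGR zinc finger factors, and brakes such as the dual-specificity phosphatases that switch MAP kinases off again. NF-kB dimers wait in the cytoplasm bound to inhibitors until TNF family ligands, interleukin-1 or Toll-like receptors release them, and they then transcribe their own inhibitors along with survival and inflammatory genes.

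Total counts ran from 13560224 to 19324056 reads in IL-15 libraries and from 14453782 to 17467130 reads in control libraries. Values in CPM are counts scaled to the TMM-adjusted library size, and a floor of 3 counts stood at 0.159 to 0.221 CPM in IL-15 libraries and at 0.174 to 0.214 CPM in control libraries, for counting error only. Markers of the labelled cell line were present, with the summed level of 10 prostate and epithelial genes at 9130 to 14123 CPM in IL-15 libraries and 8088 to 11834 CPM in control libraries. Human T cell genes (12 of 12 with a count) summed to 5.16 to 37.3 CPM in IL-15 libraries, against 3.53 to 16.4 CPM in control libraries. Cytotoxic lymphocyte genes (10 of 10 with a count) summed to 3.77 to 38.8 CPM in IL-15 libraries, against 0.989 to 15.5 CPM in control libraries. B cell genes summed to 0.0532 to 0.689 CPM in IL-15 libraries and 0.353 to 0.858 CPM in control libraries, with MS4A1 at 0 in every library. Myeloid genes summed to 2.57 to 4.68 CPM in IL-15 libraries and 2.11 to 6.09 CPM in control libraries. Fewer cells of a type and less RNA per cell cannot be told apart in bulk tumour RNA.

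Levels per gene length, as deposited FPKM, spanned the AP-1 class from top to bottom. JUND, the JUN family member found in most resting cells, led with 155 ± 60.2 FPKM in IL-15 tumours and 177 ± 38.4 FPKM in control tumours (SD, n = 5 each). JUN followed with 52.1 ± 10.5 FPKM in IL-15 and 49.7 ± 18.4 FPKM in control tumours, and DUSP1, a phosphatase of MAP kinases, with 39.8 ± 10.2 FPKM in IL-15 and 37.2 ± 16.1 FPKM in control tumours. JUN and DUSP1 are neighbours in this order whose SDs overlapped, while JUND stood clear of both. NFKBIA, which encodes the inhibitor IkB-alpha, was the most abundant NF-kB member with 17.7 ± 3.16 FPKM in IL-15 and 18.7 ± 5.08 FPKM in control tumours. FOS, the partner of JUN in the classical AP-1 dimer, was lower at 4.95 ± 3.41 FPKM in IL-15 and 2.85 ± 1.35 FPKM in control tumours. The EGR genes, markers of recent stimulation in many cell types, were scarce. EGR1 stood at 0.169 ± 0.0575 FPKM in IL-15 and 0.184 ± 0.0638 FPKM in control tumours, and EGR3 at 0.208 ± 0.0987 FPKM in IL-15 and 0.0769 ± 0.0405 FPKM in control tumours. EGR2 was lower still, at 0.0623 ± 0.0507 FPKM in IL-15 and 0.0172 ± 0.0297 FPKM in control tumours. CXCL8, the neutrophil chemokine interleukin-8, was also near the floor, with 0.0526 ± 0.0289 FPKM in IL-15 and 0.0370 ± 0.0317 FPKM in control tumours.

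**Figure D1:**
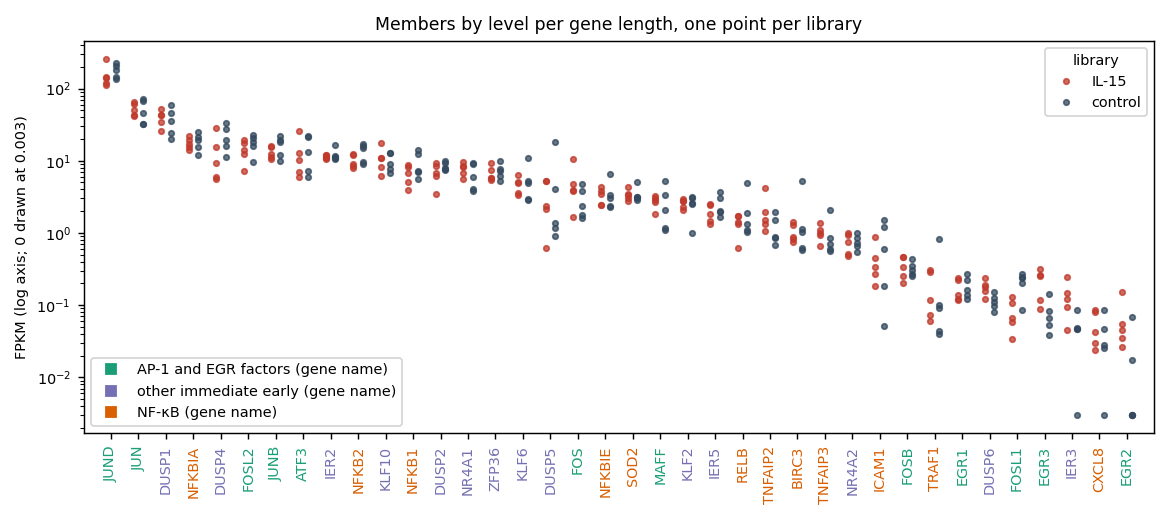
FPKM of each of the 38 members in each library on a log axis, with IL-15 libraries (red) left of control libraries (dark blue) for each gene and gene names coloured by class. JUND leads at 155 FPKM in IL-15 and 177 FPKM in control tumours, and EGR2 and CXCL8 stand at the low end with some libraries at 0, which are drawn at 0.003.

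Setting IL-15 tumours against control tumours asks whether sip-T given with IL-15 left these stimulus-response genes at another level. None of the 31 tested members passed edgeR's quasi-likelihood test. At an adjusted p under 0.05, 0 members and 0 of 16913 genes were called (0%), with a smallest adjusted p of 0.758 over all genes. DESeq2 called 7 genes and limma voom 0, and the smallest unadjusted p of a member in DESeq2 was that of TNFAIP2, unadjusted p = 0.0468. At an unadjusted p under 0.05, 0 members were called, against 1092 genes (6.46%), of which 512 were higher (3.03%) and 580 lower (3.43%) in IL-15 tumours. That share of 31 members would be about 2. The genes past this unadjusted threshold, and their split, changed when the scaling did. There were 629 higher and 422 lower with upper quartile factors, and 768 higher and 324 lower with library size alone. Groups that did not overlap were found for 0 members and for 112 genes (0.662%).

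Median log2 fold changes, IL-15 over control, were -0.08 over the 31 members and -0.01 over all tested genes. The AP-1 and EGR class had a median of -0.04 over 8 tested genes, none of them an EGR gene, with 4 above and 4 below 0. The other immediate early class had a median of -0.07 over 13 tested genes, with 5 above and 8 below 0. The NF-kB class had a median of -0.24 over 10 tested genes, with 2 above and 8 below 0 and a range of -0.72 to 0.79, but without control replicate 3 its median was 0.11. The AP-1 and EGR median also turned its sign with upper quartile factors (0.02), with library size alone (0.06) and without control replicate 3 (0.04). These data do not show the groups to be alike, because the 95% interval of 10 of the 31 members included a 2-fold difference. The within-group SD of log2 CPM had a median of 0.49 over the members and 0.34 over all tested genes, and 28 of 31 members were above the median of all genes.

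**Figure D2:**
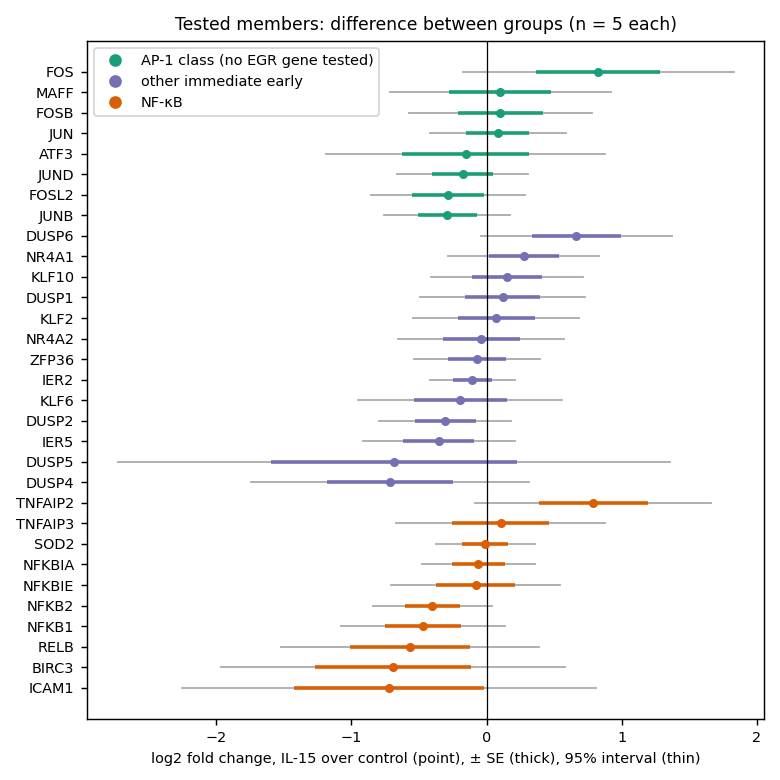
Log2 fold change, IL-15 over control, of the 31 tested members (points, n = 5 each) with its SE (thick bars) and 95% interval (thin bars), grouped and coloured by class. No interval leaves out 0, and that of DUSP5 is the widest, at -2.73 to 1.36.

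Among the 8 tested genes of the AP-1 and EGR class, FOS had the smallest unadjusted p. FOS (ENSG00000170345, hg38 chr14:75278774-75282230, plus strand) had 5.93, 16.9, 39.2, 13.5 and 13.9 CPM in IL-15 replicates 1 to 5, against 6.40, 5.65, 16.5, 8.37 and 13.6 CPM in control replicates 1 to 5. IL-15 replicate 3 was the highest library, IL-15 replicate 1 lay among the lowest with control replicates 1 and 2, and the groups overlapped. The log2 fold change of FOS was 0.83 ± 0.46 (SE; edgeR quasi-likelihood test, unadjusted p = 0.0971, adjusted p = 0.776). It ran from 0.33 without IL-15 replicate 3 (unadjusted p = 0.388) to 1.07 without control replicate 3 (unadjusted p = 0.0455), and was 1.05 without IL-15 replicate 1 (unadjusted p = 0.0230), so its size depends on single libraries.

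JUN (ENSG00000177606, hg38 chr1:58780788-58784327, minus strand), the main partner of FOS, had 164, 199, 242, 168 and 252 CPM in IL-15 replicates 1 to 5, against 127, 127, 177, 272 and 262 CPM in control replicates 1 to 5. Control replicates 1 and 2 were the lowest and control replicates 4 and 5 the highest, so the IL-15 libraries lay inside the control range (log2 fold change 0.08 ± 0.23). JUNB, a family member that can oppose JUN, had 22.7, 31.3, 25.2, 32.8 and 21.2 CPM in IL-15 replicates 1 to 5, against 20.4, 23.7, 43.6, 36.0 and 39.1 CPM in control replicates 1 to 5. Control replicates 3, 4 and 5 were above every IL-15 library and control replicate 1 was below them all (log2 fold change -0.29 ± 0.22). ATF3 (ENSG00000162772, hg38 chr1:212565334-212620777, plus strand), a stress-induced factor of the same bZIP superfamily, had 27.1, 46.2, 58.2, 31.5 and 113 CPM in IL-15 replicates 1 to 5, against 26.8, 32.1, 92.3, 96.0 and 59.8 CPM in control replicates 1 to 5. The high libraries came from both groups, IL-15 replicate 5 with control replicates 3 and 4, and the log2 fold change was -0.16 ± 0.47.

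The remaining tested genes of the class had log2 fold changes from -0.29 to 0.10. They were FOSL2, a FOS relative, with -0.29 ± 0.26, JUND with -0.18 ± 0.23, FOSB, another FOS relative, with 0.10 ± 0.31, and MAFF, a small MAF protein, with 0.10 ± 0.38. JUND was at 530.2 CPM in IL-15 replicate 5 and at 234 to 300.4 CPM in the other IL-15 libraries, against 278 to 451 CPM in control libraries. With 1 library left out the log2 fold change of JUND ran from -0.44 ± 0.17 without IL-15 replicate 5 (unadjusted p = 0.0262) to -0.08 ± 0.23 without IL-15 replicate 1. FOSB, JUNB and MAFF overlap genes on the other strand (ERCC1 with 4416 counts, HOOK2 with 19987 and PLA2G6 with 6986), and since no strand setting is given in the sources used here, reads of such pairs cannot be told apart.

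The 4 untested members of the class were scarce in both groups. EGR1 had 6, 8, 8, 11 and 11 counts in IL-15 replicates 1 to 5, against 15, 11, 8, 8 and 6 counts in control replicates 1 to 5, so the groups overlapped. EGR3 had 7, 12, 23, 19 and 23 counts in IL-15 replicates 1 to 5, against 7, 5, 3, 13 and 4 counts in control replicates 1 to 5. IL-15 replicates 3, 4 and 5 were above every control library, while IL-15 replicates 1 and 2 were not. With no low-count filter, EGR3 had a log2 fold change of 1.41 ± 0.50 (edgeR, unadjusted p = 0.00605, adjusted p = 0.632), and it was singled out after its values were seen. An antisense gene at EGR3, AC055854.1, held 81 counts beside the 116 of EGR3. FOSL1, the FOS relative FRA1, had 13 counts over the IL-15 libraries and 32 over the control libraries, and EGR2 had 19 over the IL-15 libraries and 5 over the control libraries.

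The other immediate early and feedback genes hold most of the brakes on MAP kinases. DUSP1 (ENSG00000120129, hg38 chr5:172768090-172771195, minus strand) had 58.3, 95.3, 121, 97.2 and 75.4 CPM in IL-15 replicates 1 to 5, against 55.3, 44.6, 131, 101 and 80.3 CPM in control replicates 1 to 5. Control replicate 3 was the highest and control replicate 2 the lowest library, with a log2 fold change of 0.12 ± 0.28. DUSP4, a nuclear phosphatase of ERK, had 44.7, 226, 49.4, 126 and 74.7 CPM in IL-15 replicates 1 to 5, against 128, 90.1, 219, 261 and 156 CPM in control replicates 1 to 5. IL-15 replicates 1, 3 and 5 were below every control library, and IL-15 replicate 2 was the second highest of all (log2 fold change -0.71 ± 0.47, edgeR unadjusted p = 0.155). With 1 library left out the log2 fold change of DUSP4 ran from -1.20 ± 0.38 without IL-15 replicate 2 (unadjusted p = 0.00934) to -0.51 ± 0.49 without control replicate 4 (unadjusted p = 0.329).

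DUSP5, a nuclear ERK phosphatase, varied most among the tested members. It had 1.79, 15.3, 7.05, 15.2 and 6.17 CPM in IL-15 replicates 1 to 5, against 2.69, 3.89, 51.7, 11.6 and 3.36 CPM in control replicates 1 to 5, a 28.9-fold range over the libraries. Control replicate 3 set the top, and without it the log2 fold change was 0.75 ± 0.61, against -0.68 ± 0.91 with it. DUSP6, the cytoplasmic ERK phosphatase, was scarce, with 0.620, 0.797, 1.25, 0.932 and 0.956 CPM in IL-15 replicates 1 to 5, against 0.640, 0.565, 0.753, 0.407 and 0.500 CPM in control replicates 1 to 5. The 4 highest libraries were IL-15 replicates 2 to 5 and the groups overlapped through IL-15 replicate 1 (log2 fold change 0.66 ± 0.33, edgeR unadjusted p = 0.0636, adjusted p = 0.772). IER2, a small nuclear immediate early protein, was the steadiest, with a 1.61-fold range over the libraries and means of 38.6 ± 2.69 CPM in IL-15 and 41.5 ± 8.63 CPM in control tumours.

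The other tested genes of this class had log2 fold changes from -0.35 to 0.28. The orphan nuclear receptors had 0.28 ± 0.26 (NR4A1) and -0.04 ± 0.29 (NR4A2), and the Krüppel-like factors 0.15 ± 0.26 (KLF10), 0.07 ± 0.29 (KLF2) and -0.19 ± 0.35 (KLF6). ZFP36, which destabilises mRNAs with AU-rich elements, had -0.07 ± 0.22, DUSP2, a phosphatase of lymphocytes and other cells, had -0.31 ± 0.23, and IER5 had -0.35 ± 0.26. IER3, an immediate early gene that NF-kB also drives, had 16 counts over the IL-15 libraries and 5 over the control libraries. Its antisense gene IER3-AS1 held 54 counts.

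The NF-kB genes begin with the inhibitors. NFKBIA (ENSG00000100906, hg38 chr14:35401511-35404749, minus strand) had 52.0, 44.9, 41.9, 58.0 and 36.8 CPM in IL-15 replicates 1 to 5, against 51.9, 40.5, 64.9, 31.1 and 55.3 CPM in control replicates 1 to 5. The highest and the lowest library were both controls, replicates 3 and 4, and the log2 fold change was -0.06 ± 0.19. TNFAIP3 (ENSG00000118503, hg38 chr6:137867188-137883312, plus strand), which encodes the ubiquitin-editing enzyme A20, had 7.72, 5.26, 5.68, 6.09 and 3.68 CPM in IL-15 replicates 1 to 5, against 4.80, 3.11, 11.4, 3.84 and 3.36 CPM in control replicates 1 to 5. IL-15 replicates 1 to 4 were above every control library except replicate 3, which was the highest of all. The log2 fold change of TNFAIP3 was 0.10 ± 0.36, and 0.59 ± 0.27 without control replicate 3 (edgeR, unadjusted p = 0.0508). NFKBIE, the inhibitor IkB-epsilon, had a log2 fold change of -0.08 ± 0.29.

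Of the subunits, NFKB2 (ENSG00000077150, hg38 chr10:102394110-102402529, plus strand), which encodes p100, the precursor of p52, had 59.7, 44.9, 40.2, 61.3 and 41.4 CPM in IL-15 replicates 1 to 5, against 48.3, 77.9, 83.9, 43.3 and 73.4 CPM in control replicates 1 to 5. Control replicates 2, 3 and 5 were above every IL-15 library and control replicates 1 and 4 were not. The log2 fold change of NFKB2 was -0.40 ± 0.20 (edgeR, unadjusted p = 0.0706, adjusted p = 0.774), and with 1 library left out it ran from -0.52 ± 0.19 without control replicate 4 (unadjusted p = 0.0177) to -0.30 ± 0.21 without control replicate 3 (unadjusted p = 0.181). RELB (ENSG00000104856, hg38 chr19:45001430-45038198, plus strand), the partner of p52 in the non-canonical pathway, had 5.86, 4.78, 5.99, 4.44 and 2.06 CPM in IL-15 replicates 1 to 5, against 4.48, 3.67, 16.4, 3.37 and 6.43 CPM in control replicates 1 to 5. Control replicate 3 was far above the rest, and the log2 fold change of RELB was -0.57 ± 0.44 with it and 0.04 ± 0.33 without it. NFKB1, which encodes p105, the precursor of p50, had a log2 fold change of -0.47 ± 0.28.

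Among the target genes, BIRC3 (ENSG00000023445, hg38 chr11:102317450-102339403, plus strand), which encodes the apoptosis inhibitor cIAP2, had 6.20, 6.86, 11.0, 12.0 and 7.28 CPM in IL-15 replicates 1 to 5, against 8.58, 4.73, 42.4, 9.25 and 5.08 CPM in control replicates 1 to 5. Control replicate 3 alone lay outside the range of 4.73 to 12.0 CPM, and the log2 fold change was -0.69 ± 0.58 with it and 0.32 ± 0.29 without it. TRAF1, a signalling adaptor induced by NF-kB, was left out by the low-count filter, and of its counts 32, 8, 14, 29 and 7 fell in IL-15 replicates 1 to 5, against 5, 4, 83, 11 and 10 in control replicates 1 to 5. Control replicate 3 was again the highest, followed by IL-15 replicates 1 and 4. SOD2 (ENSG00000112096, hg38 chr6:159669057-159745186, minus strand), the mitochondrial superoxide dismutase, had 55.7, 77.5, 64.2, 60.5 and 50.7 CPM in IL-15 replicates 1 to 5, against 57.4, 51.8, 89.3, 55.8 and 56.5 CPM in control replicates 1 to 5. Its log2 fold change was -0.01 ± 0.17, and WTAP, which overlaps it on the other strand, held 20457 counts beside its 9514.

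TNFAIP2 (ENSG00000185215, hg38 chr14:103123442-103137439, plus strand), a gene first found as induced by TNF, was the NF-kB member with the largest positive difference. It had 23.6, 7.34, 8.55, 11.0 and 5.88 CPM in IL-15 replicates 1 to 5, against 11.0, 3.74, 4.58, 8.26 and 4.93 CPM in control replicates 1 to 5. IL-15 replicate 1 was the highest library, and control replicate 1 lay level with the second highest IL-15 library. The log2 fold change of TNFAIP2 was 0.79 ± 0.40 (edgeR, unadjusted p = 0.0724, adjusted p = 0.774), and with 1 library left out it ran from 0.33 without IL-15 replicate 1 (unadjusted p = 0.342) to 1.06 without control replicate 1 (unadjusted p = 0.0221). ICAM1, an adhesion molecule that lymphocytes bind, had 0.758, 1.38, 1.87, 3.58 and 1.10 CPM in IL-15 replicates 1 to 5, against 0.768, 6.15, 4.79, 2.44 and 0.214 CPM in control replicates 1 to 5. The controls held both ends of its range (log2 fold change -0.72 ± 0.70). CXCL8 had 3, 2, 1, 3 and 1 counts in IL-15 replicates 1 to 5, against 1, 0, 1, 2 and 3 counts in control replicates 1 to 5, so no library rose above the floor of 3 counts.

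**Figure D3:**
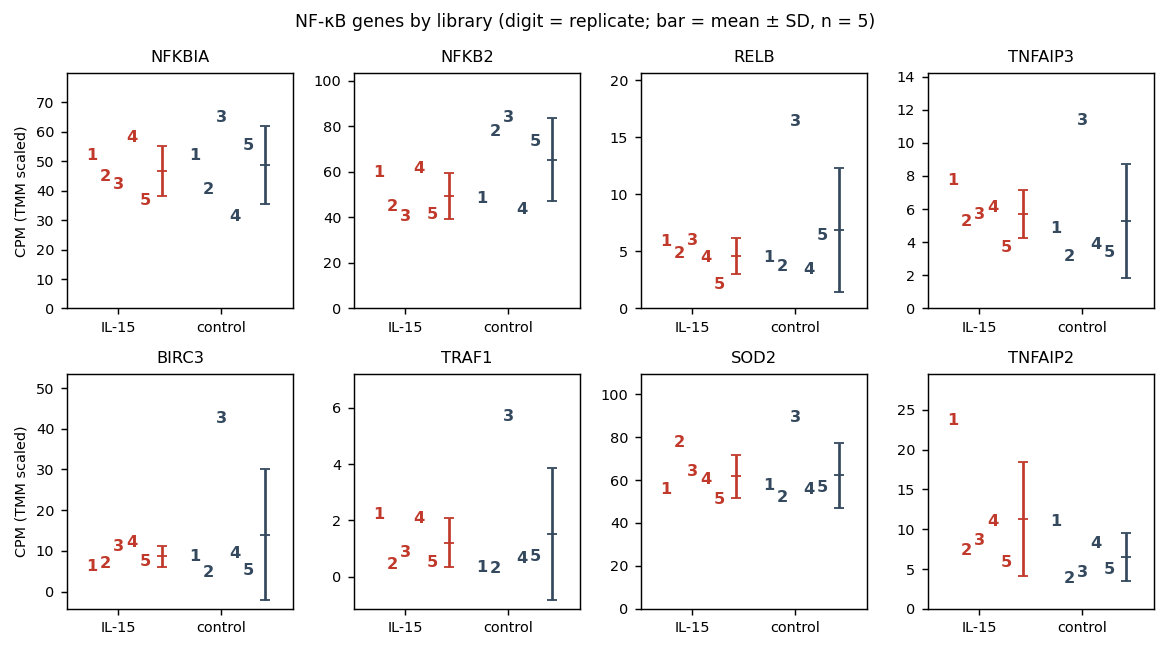
CPM of 8 NF-kB genes by library, with IL-15 left of control, where each digit is a replicate number and the bars give the mean ± SD (n = 5 each). Control replicate 3 tops NFKBIA, NFKB2, RELB, TNFAIP3, BIRC3, TRAF1 and SOD2 but not TNFAIP2, which IL-15 replicate 1 tops at 23.6 CPM.

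For the NF-kB genes, control replicate 3 stood apart. It was the highest of the 10 libraries for 8 of the 10 tested NF-kB members (80%), which were NFKBIA, NFKBIE, NFKB1, NFKB2, RELB, TNFAIP3, BIRC3 and SOD2, whereas it was the highest for 9.63% of all tested genes. The median deviation of the class from each gene's mean was 0.93 log2 CPM in this library and -0.40 to 0.28 in the other libraries. Of 17 other tested NF-kB targets it was the highest for 5, CSF1, SDC4, EHD1, TNFSF10 and FAS, with a median deviation of 0.44. The library was singled out after its values were seen. The median deviation of the 8 tested AP-1 class genes was 0.47 in it, with JUNB and MAFF at their highest, and that of the other immediate early genes was 0.08.

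Markers of other cells and states also moved in control replicate 3. Its T cell sum was 16.4 CPM and its cytotoxic sum 15.5 CPM, against T cell sums of 3.53 to 4.50 CPM and cytotoxic sums of 0.989 to 3.39 CPM in the other control libraries. The 3 libraries with higher T cell and cytotoxic sums had smaller NF-kB median deviations, of 0.19 in IL-15 replicate 1 (37.3 and 38.8 CPM), 0.11 in IL-15 replicate 3 (24.6 and 25.2 CPM) and 0.28 in IL-15 replicate 4 (21.1 and 18.6 CPM). These 3 and control replicate 3 were the libraries with a positive NF-kB median deviation. The other 6 libraries, with T cell sums of 3.53 to 6.25 CPM, had NF-kB median deviations of -0.40 to -0.06. The 10 hypoxia genes summed to 4402 CPM in control replicate 3, the highest value, while IL-15 libraries had 1943 to 3784 CPM and the other control libraries 1275 to 3621 CPM. Its myeloid sum of 6.09 CPM over 10 genes was also the highest. The 2 tested myeloid genes, CSF1R and CD14, went the other way. Their median deviation was -0.37 log2 CPM in control replicate 3 and -0.38 to 0.79 in the other libraries. The part of these cells and states in the NF-kB levels was not tested.

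The 8 tested genes of the AP-1 class, which hold no EGR gene, divided the libraries in another way. Their median deviation was -0.43 in IL-15 replicate 1, -0.62 in control replicate 1 and -0.46 in control replicate 2, and -0.01 to 0.47 in the other 7 libraries, which came from both groups. EGR1, too scarce to be tested, had its highest value, 15 counts, in control replicate 1. The other immediate early genes had their lowest median deviations in the same 3 libraries, at -0.26 in IL-15 replicate 1, -0.32 in control replicate 1 and -0.34 in control replicate 2. The hypoxia sum was 1943 CPM in IL-15 replicate 1, and 1275 and 1722 CPM in control replicates 1 and 2, the 3 lowest of the 10 libraries, and its part in the AP-1 levels was not tested. The heat shock sum, with HSPB1 the largest of its 6 genes, was 851 CPM in IL-15 replicate 1. It was 858 and 1190 CPM in control replicates 1 and 2. The other libraries spanned 797 to 1658 CPM, with these values inside. Gene by gene, the heat shock median deviation was 0.05 in IL-15 replicate 1, -0.63 in control replicate 1 and 0.01 in control replicate 2. It was -0.24 to 0.62 in the other libraries, highest in control replicate 4. The part of heat shock in the AP-1 levels was not tested.

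**Figure D4:**
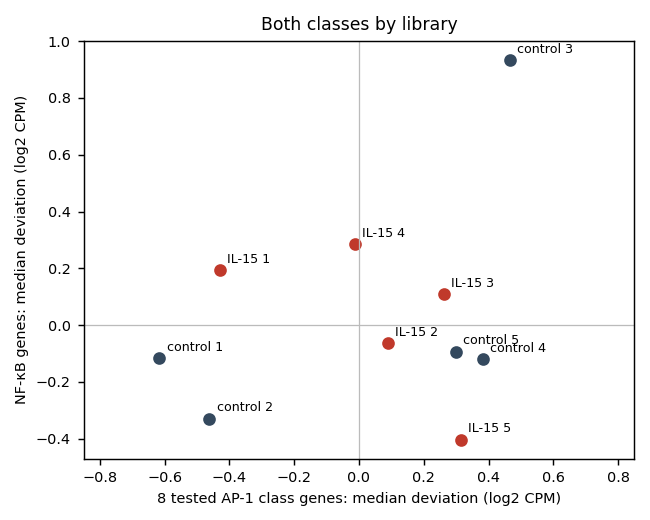
Median deviation of log2 CPM from each gene's mean over 10 libraries for the 8 tested AP-1 class genes, with no EGR gene among them (x axis) and the NF-kB genes (y axis), one point per library. Control replicate 3 lies at 0.93 on the NF-kB axis, apart from the other 9 libraries, while IL-15 replicate 1 and control replicates 1 and 2 form the low side of the AP-1 axis.

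**Figure D5:**
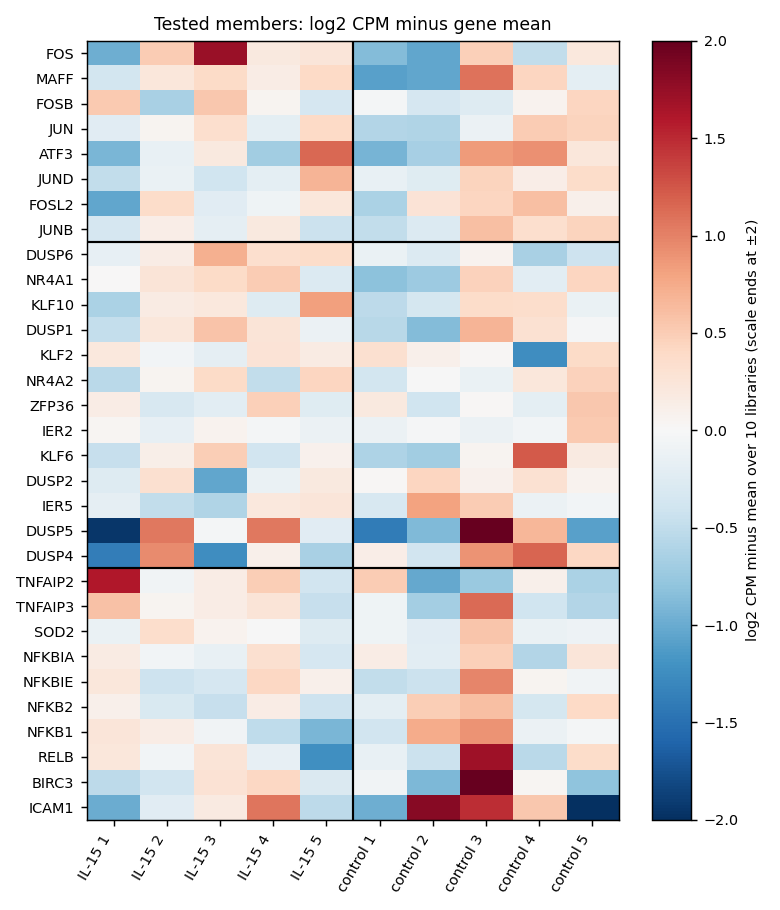
Log2 CPM of the 31 tested members minus each gene's mean, with IL-15 libraries left of control libraries and lines between the 3 classes, on a colour scale that ends at ±2. The column of control replicate 3 holds the highest value for 8 of the 10 NF-kB genes. The column of control replicate 1 is low for most genes of the AP-1 class, which includes no tested EGR gene.

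Over the 10 libraries, the median Pearson r of log2 CPM was 0.44 over 28 pairs within the AP-1 class, 0.42 over 45 pairs within the NF-kB class and 0.05 over 80 pairs between them. Without control replicate 3 these medians were 0.42, 0.15 and -0.10, so the NF-kB value rested largely on that library. The other immediate early genes did not form a class of their own by this measure, with a median r of 0.07 over 78 pairs within the class, 0.28 over 104 pairs with the AP-1 class and 0.08 over 130 pairs with the NF-kB class. Libraries share a scaling factor, and these medians are descriptions. Of 18 pairs chosen for testing, 16 could be computed, since EGR1 and CXCL8 were not tested genes, and 5 had a permutation p under 0.05 before and 0 after Benjamini-Hochberg adjustment.

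FOS and DUSP1 moved together most among those 16 pairs, with r = 0.81 (permutation p = 0.00513, adjusted p = 0.0821) and rho = 0.72 (permutation p = 0.0222, adjusted p = 0.192). Without the 2 libraries farthest from the FOS median, r was 0.74, without control replicate 3 it was 0.83, and with group means removed it was 0.81. FOS and NR4A1 had r = 0.71 (permutation p = 0.0201, adjusted p = 0.107), rho = 0.53 (permutation p = 0.123, adjusted p = 0.246) and r = 0.68 without the 2 farthest libraries (permutation p = 0.0622). NFKBIA and RELB had r = 0.74 (permutation p = 0.0126, adjusted p = 0.101), rho = 0.72 (permutation p = 0.0239, adjusted p = 0.192) and r = 0.64 without the 2 farthest libraries (permutation p = 0.0689). NFKBIA and NFKB2 had r = 0.64 (permutation p = 0.0488, adjusted p = 0.156), rho = 0.66 (permutation p = 0.0447, adjusted p = 0.197) and r = 0.44 without the 2 farthest libraries. NFKBIA and TNFAIP3 had r = 0.63 (permutation p = 0.0487, adjusted p = 0.156), rho = 0.60 (permutation p = 0.0737, adjusted p = 0.236) and r = 0.41 without the 2 farthest libraries. The farthest libraries for NFKBIA were control replicates 3 and 4, and its relations with NFKB2 and TNFAIP3 rest on them. FOS and NFKBIA had r = 0.07 (permutation p = 0.847) and rho = 0.10. Over all member pairs, the highest r were 0.94 for ATF3 with KLF10, 0.91 for MAFF with DUSP1 and 0.86 for JUN with KLF6, and the lowest was -0.82 for KLF2 with KLF6, all picked after the values were seen.

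Other genes of these pathways, listed by function, gave no adjusted call either. In the NF-kB subunit and upstream list, 1 of 32 tested genes was higher and 5 were lower in IL-15 tumours. This was at an unadjusted p under 0.05, beside 3.03% and 3.43% of all genes. Of the 32, 25 lay below 0 with a median of -0.10, beside 8621 of all 16913 tested genes below 0. The scaling moves such values, as the median of all tested genes was -0.01 with TMM and 0.08 with library size alone. MAP3K14, the kinase NIK that starts p100 processing, stood at 35.1 ± 7.39 CPM in IL-15 and 50.7 ± 12.8 CPM in control tumours (log2 fold change -0.53 ± 0.19, edgeR unadjusted p = 0.0146, adjusted p = 0.758). RELA, the p65 subunit, stood at 87.3 ± 9.50 CPM in IL-15 and 113 ± 19.6 CPM in control tumours (log2 fold change -0.37 ± 0.14, unadjusted p = 0.0210). TNIP2, TAB1 and LTBR were the other lower genes, and NFKBIZ, an inducible nuclear IkB protein, was the higher one (log2 fold change 0.75 ± 0.32). MAP3K14 and RELA were highest in control replicate 3, which topped 7 of the 32 genes (21.9%) and 9.63% of all tested genes. TNIP2, TAB1 and LTBR were highest in control replicate 5, which topped 11 of the 32 (34.4%) and 16.9% of all tested genes. NFKBIZ was highest in IL-15 replicate 3, at 77.6 CPM. Of 17 tested NF-kB targets outside the members, 0 were higher and 1 was lower, EHD1 at -0.41 ± 0.16. The 9 ligands that activate NF-kB held 289 counts in all and none was tested. TNF had 40 counts over the IL-15 libraries and 24 over the control libraries, and LTB, lymphotoxin beta, had 49 over the IL-15 libraries and 4 over the control libraries. TNF and LTB do not stand for the other ligands, which are not given singly. All 9 ligands together summed to 1.10 to 4.48 CPM in IL-15 libraries and 0.565 to 2.46 CPM in control libraries, so the groups overlapped. The highest sums were in IL-15 replicate 1 and control replicate 3, which also had the highest T cell sums of their groups. The part of T cells in the ligand levels was not tested.

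On the immediate early side, at an unadjusted p under 0.05, 3 of 23 other tested immediate early genes were higher and 0 were lower. Beside this and the counts below, 3.03% of all tested genes were higher and 3.43% lower. PLK2, a kinase of the polo family, stood at 46.7 ± 15.5 CPM in IL-15 and 24.6 ± 10.2 CPM in control tumours (log2 fold change 0.92 ± 0.32, edgeR unadjusted p = 0.0133, adjusted p = 0.758). KLF4, a Krüppel-like factor, had a log2 fold change of 0.50 ± 0.22, and ZFP36L1, a relative of ZFP36, had 0.41 ± 0.17. All 3 genes were highest in the same library, IL-15 replicate 3. This library was the highest for 6 of the 23 genes (26.1%) and for 15% of all tested genes. Of 9 other tested AP-1 family genes 0 were called in either direction. Of 11 tested ERK feedback genes 0 were higher and 2 lower, DUSP8 at -0.48 ± 0.18 and DUSP14 at -0.39 ± 0.16. Among 20 kinases and factors that feed SRF and AP-1, 1 was higher, ELK4 at 0.40 ± 0.15. In the same list 2 were lower, MAPK3, the kinase ERK1, at -0.32 ± 0.13 and ELK1 at -0.27 ± 0.12. DUSP8, DUSP14 and MAPK3 were highest in control replicate 3, ELK1 in control replicate 2 and ELK4 in IL-15 replicate 4.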

How the data were processed

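Gene counts and FPKM per library were deposited by the authors. The deposited counts are whole-number read counts per gene, per the file headers and values, and the deposited FPKM values are those of the authors. Build hg38, fastp, HISAT2 2.0.5, featureCounts 1.5.0-p3, and also GATK 4.1.1.0 and DESeq2 1.20.0 appear in the submitters' processing notes, without roles or settings. How mouse reads were handled, the strand setting and the annotation release: not given in the sources used here. By the labels the organism is mouse, while the table holds human genes. A deposited table of group means was not used.

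Counts were filtered with filterByExpr (minimum count 10), scaled by TMM and tested with edgeR 4.0.16 (quasi-likelihood, robust, R 4.3.3), with Benjamini-Hochberg adjustment over 16913 genes at 0.05. Errors on log2 fold changes are SE. Correlations used log2 CPM (prior count 2) and 100000 permutations, two-sided. Alternatives covered scaling, filter, DESeq2 1.42.0, limma 3.58.1 (voom, and log2 of FPKM plus 0.1 or 1), a replicate block and each library left out. The test code was tested on simulated data. All 45 pairs of libraries differed by more than counting error (chi-square divided by its degrees of freedom, 20.6 to 92.5). Members and lists were chosen with earlier results of these data known. The text accounts for all 38 members, gives values in every library for a fixed set of them, and from each other list names genes among the 4 with the smallest p, together with every gene of the list past the unadjusted threshold. The ligand list held no tested gene, so TNF and LTB were named without a p to rank them. Sequences of the members were not used here.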

Additional observations from a re-analysis of the deposited data

Results flagged for a closer look

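Over 62 groups of 5 libraries (31 members in 2 groups), Dixon's test of the gap between the extreme library and its neighbour, at a critical value of 0.71, marked 9 groups. Chance marks about 5% of groups when values are normal and groups are independent. Here the values were CPM without a log, and the members shared the same libraries, so the 9 groups cannot be judged against that share. Of the 9, 6 were control replicate 3. They were BIRC3 at 42.4 CPM with the next control at 9.25, SOD2 at 89.3 with the next at 57.4, DUSP5 at 51.7 with the next at 11.6, TNFAIP3 at 11.4 with the next at 4.80, RELB at 16.4 with the next at 6.43, and NFKBIE at 18.2 with the next at 9.54 CPM. The other three were JUND in IL-15 replicate 5 at 530.2 CPM with the next IL-15 library at 300.4, TNFAIP2 in IL-15 replicate 1 at 23.6 with the next at 11.0, and IER2 in control replicate 5 at 56.8 with the next at 39.1 CPM.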

How the results depend on the processing

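At an unadjusted p under 0.05 the count of members was 0 with DESeq2 size factors, upper quartile factors, a mean of at least 1 CPM and limma voom. It was 1 of 31 with library size alone (DUSP6), beside 768 genes higher and 324 lower of 16913. With FPKM it was 1 of 35 at either pseudocount (FOSL1). Beside it stood 810 genes higher and 816 lower of 25549 at a pseudocount of 0.1, and 768 higher and 785 lower at a pseudocount of 1. With no low-count filter it was 2 of 38 (EGR3 and NFKB2), beside 1352 genes higher and 1404 lower of 40934. With DESeq2 it was 2 of 31 (FOS at unadjusted p = 0.0495 and TNFAIP2 at unadjusted p = 0.0468), beside 597 genes higher and 649 lower of 16913. FOSL1 and EGR3 were not among the 31 members of the main fit. Leaving out 1 library gave 0 to 4 members, of 31 to 34 tested. Without IL-15 replicate 1 it was 4 of 33 (FOS, EGR3, DUSP6 and NFKB2), beside 381 genes higher and 376 lower of 17243. Without control replicate 1 it was 4 of 33 (EGR3, NFKB1, NFKB2 and TNFAIP2), beside 783 genes higher and 698 lower of 17171. At an adjusted p under 0.05 the count of all genes was 1 with no filter, 7 with DESeq2, 2 with FPKM and a pseudocount of 0.1, and 0 in the other alternatives. At an unadjusted p under 0.05 it was 2756 with no filter, and 616 (without IL-15 replicate 3) to 1575 (without IL-15 replicate 2) with 1 library left out. The replicate block gave 2 of 31 members (FOS and TNFAIP2), beside 1035 of 16913 genes. Same-numbered libraries correlated at -0.22 to 0.26, and 1 of 5 IL-15 libraries correlated best with its own number. These values show no match by number, but they cannot exclude a pairing in the design, since tumours can differ for other reasons.

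With 1 library left out, class medians ran from -0.17 to 0.09 (AP-1 and EGR), -0.14 to 0.08 (other immediate early) and -0.35 to 0.11 (NF-kB), and without control replicate 3 the log2 fold changes of 7 members changed sign. Among single members and pairs under all alternatives, 653 values were classed as unchanged, 18 passed the threshold, 7 no longer passed it and 5 moved. The unchanged class includes members whose log2 fold change turned its sign without crossing the threshold. For pairs under another scaling or with group means removed, it means only a small change in r. The cause was not tested. Depth limits FOSL1, EGR1, EGR2, EGR3, IER3, TRAF1 and CXCL8 most.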
